A study of Mus musculus with 18 samples.

Results

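The genes described here are 9 genes of homologous recombination, Brca1, Brca2, Palb2, Bard1, Rad54l, Rad52, Xrcc2, Xrcc3 and Rbbp8, chosen by name. They were found through the accession of each array probe, matched to RefSeq, which gave 12 probes of the 37246 on the array, or 9 of 34289 distinct gene names. Brca2 had 2 probes, Rad54l had 3 and each of the other genes had 1. All 12 probes were well above background on all 18 arrays and none was saturated, so no member's value is a bound.

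Homologous recombination repairs a DNA double strand break by copying an intact sister chromatid, and it is therefore used mainly after DNA has been replicated. The broken ends are first resected to single strands, with Rbbp8 (CtIP) as a cofactor of the nuclease. Brca1 with its partner Bard1 acts at resection and, through Palb2, brings in Brca2, which prepares the single strand for invasion of the sister. Xrcc2 and Xrcc3 belong to complexes that assist this step, Rad54l is a motor protein that helps the strand to invade, and Rad52 anneals single strands.

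Expression was measured in mouse embryonic stem cells grown from blastocysts with leukemia inhibitory factor (LIF) on gelatin, without feeder cells (ES), and in isogenic cells differentiated from them without LIF (ED), over 1 week or until stem cell markers were gone according to the labels. Each was left unirradiated or received 10 Gy of ionizing radiation (IR), and RNA was taken after 15 min, giving ESRE and EDRE, or after 4 h, giving ESRL and EDRL. Each of the 6 groups had 3 samples, and each sample was hybridized to 1 array. The labels number the replicates but do not say whether they were separate cultures, so the p-values measure only the spread between these arrays, which may be technical. ED cells are described only as non-stem cells, with no named lineage.

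Levels are given as log2 of the processed signal minus the 75th percentile of the array, so a level of 0 is the brightness of that percentile. Levels of different probes cannot be set against each other. A gene was called changed where limma's Benjamini-Hochberg adjusted p was under 0.05 and the log2 change was over 1 in size. The 75th percentile was between 1952 and 4268 on 16 arrays, but 875 and 1155 on replicates 2 and 3 of EDRE, on which 24.4% and 23.8% of the spots were marked as outliers by the scanner software and left out. For that reason only replicate 1 of EDRE gave a value for Brca1, for both probes of Brca2, for the 3 probes of Rad54l and for Xrcc3. A slide stands here for the arrays that share a scan time in the file headers. The ES arrays were alone on theirs and no irradiated group shared one with its unirradiated control, so the slide and the group cannot be told apart within a slide. All ES arrays were on 1 slide and all ED arrays on another, so neither group shows any spread between slides. The correlation of arrays of a slide around their group means, as estimated by limma, was 0.81. The main fit treats arrays as independent, so its p-values leave this correlation out. As a check of the labels, 7 of 8 stem cell markers tested were lower in ED cells, among them Pou5f1 (Oct4), which changed by -10.29 (adjusted p = 7.16e-13), Sox2 by -2.37 (adjusted p = 1.75e-06) and Nanog by -8.85 from 1 usable ES array (adjusted p = 5.36e-08, limma). Signal of these markers was not all gone from ED cells. Sox2, at 2.32 on average, and Pou5f1, at -3.59, were well above background on 3 of 3 ED arrays. Klf4, named after its values were seen, did not fall, with means of 3.84 in ES and 3.89 in ED cells. Of the markers of other cells, 6 of 7 fibroblast and mesenchymal markers were higher and 1 lower.

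**Figure D1:**
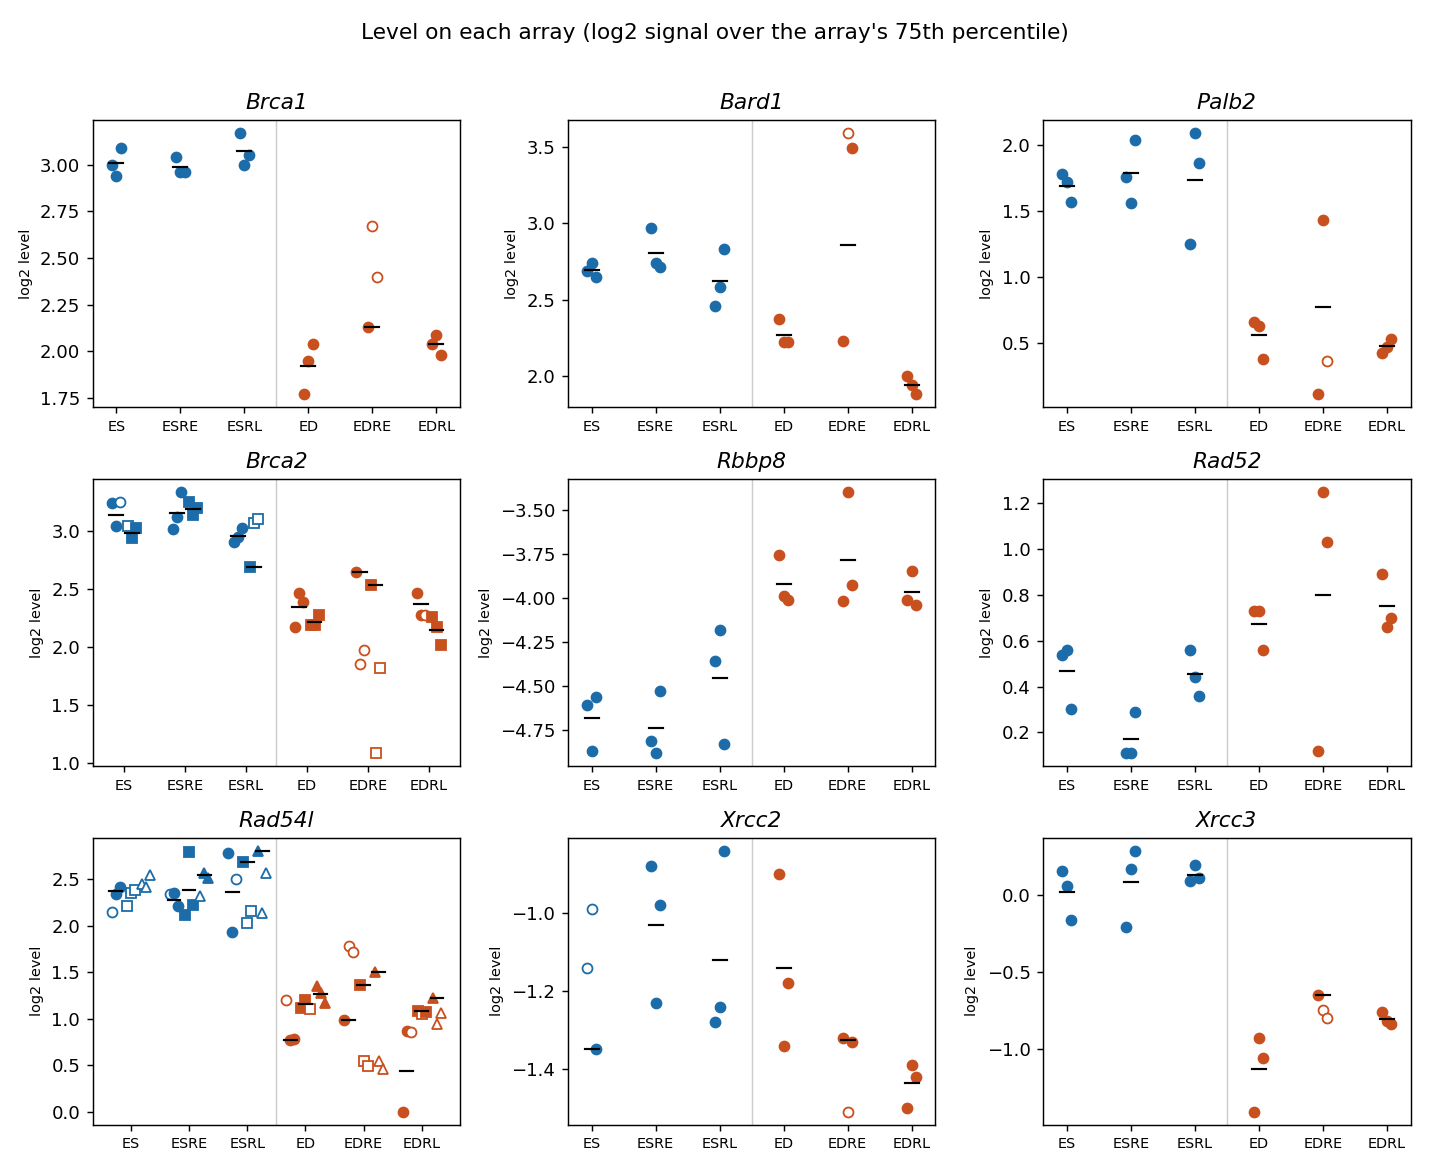
Level of each gene (log2 signal over the 75th percentile of the array) on each array of the 6 groups, with ES cells in blue and ED cells in orange. Filled points were used, open points are spots marked as outliers and left out, bars are means of the filled points, and different symbols are different probes of Brca2 and Rad54l. All used values of Brca1 lie between 2.94 and 3.17 in the 3 ES groups and between 1.77 and 2.13 in the 3 ED groups.

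In unirradiated cells, 4 of the 9 genes were called lower in ED than in ES cells (Brca1, Palb2, Rad54l and Xrcc3) and 0 were called higher. Of all genes tested, 41.5% were called in this comparison, 26.7% lower and 14.9% higher, so a share of 4 in 9 is to be read against a change of a large part of all genes. The median change over the 10 member probes tested was -0.78, against -0.19 over all probes tested.

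Brca1, the ubiquitin ligase at the head of the pathway, was at 3.0, 2.94 and 3.09 on the ES arrays and at 1.77, 1.95 and 2.04 on the ED arrays. The groups did not overlap. The share of all probes without overlap was not counted, here or for the genes below. Brca1 was lower in ED cells by a log2 change of -1.09, with a 95% interval from -1.38 to -0.81 and limma's adjusted p = 1.1e-05.

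Bard1, its ring-finger partner, was at 2.69, 2.74 and 2.65 in ES and at 2.37, 2.22 and 2.22 in ED cells. Its values did not overlap either, but the change of -0.43 did not pass the test (standard error 0.24, adjusted p = 0.161). That error is taken over all 18 arrays, and the SD of Bard1 was 0.05 in ES and 0.09 in ED cells but 0.89 between the 2 usable arrays of EDRE. On the same arrays, with outlier spots kept, Brca1 changed by -0.67 relative to Bard1, and no ED array overlapped an ES array in this difference.

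Palb2, the bridge between Brca1 and Brca2, was at 1.78, 1.72 and 1.57 in ES and at 0.66, 0.63 and 0.38 in ED cells, with no overlap. The change was -1.13 (standard error 0.29, adjusted p = 0.00453). The 2 probes of Brca2, which prepares the single strand, gave close values. The first (NM_001081001) was at 3.24 and 3.05 on 2 usable ES arrays and at 2.18, 2.47 and 2.39 in ED cells, and the second (NM_009765) was at 2.94 and 3.03 on 2 ES arrays and at 2.19, 2.19 and 2.28 in ED cells. Their changes of -0.80 and -0.76 had adjusted p = 0.00282 and 0.0025 and stayed under the fold limit. By adjusted p alone, 51.5% of all genes passed in this comparison, and 6 of the 9 members did.

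Rad54l had the largest change of the 9 genes. Its probe NM_001122958 was at 2.34 and 2.42 on 2 usable ES arrays and at 0.77 and 0.78 on 2 usable ED arrays, so that it changed by -1.61 (95% interval -2.47 to -0.74, adjusted p = 0.00743). The other 2 probes, NM_001122959 and NM_009015, had no usable spot on any ES array. With outlier spots kept, the 3 probes changed by -1.39, -1.17 and -1.20 (adjusted p = 0.000749, 0.000979 and 0.000769), and all were called.

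Xrcc2 and Xrcc3, of the complexes that assist strand invasion, differed from each other. Xrcc3 was at 0.16, 0.06 and -0.16 in ES and at -1.41, -0.93 and -1.06 in ED cells, with no overlap and a change of -1.15 (standard error 0.17, adjusted p = 0.000103). Xrcc2 was at -1.35 on the 1 usable ES array and at -0.90, -1.34 and -1.18 in ED cells, a change of 0.21 (95% interval -0.34 to 0.75). With outlier spots kept, Xrcc3 changed by -1.16 relative to Xrcc2 on the same arrays.

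Rad52 and Rbbp8 were not lower. Rad52 was at 0.54, 0.56 and 0.30 in ES and at 0.73, 0.73 and 0.56 in ED cells, where the highest ES array and the lowest ED array were level, and its change was 0.21 (95% interval -0.28 to 0.69). Rbbp8, the resection cofactor, was at -4.61, -4.87 and -4.56 in ES and at -3.76, -3.99 and -4.01 in ED cells, with no overlap. Its change was 0.76 (standard error 0.20, adjusted p = 0.00502), under the fold limit. Brca1 changed by -1.85 relative to Rbbp8 on the same arrays, and Rad54l (NM_001122958, outlier spots kept) by -1.60 relative to Rad52. These differences between genes of 1 array do not depend on how arrays were scaled; the pairs were chosen after the values were seen and were not tested.

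**Figure D2:**
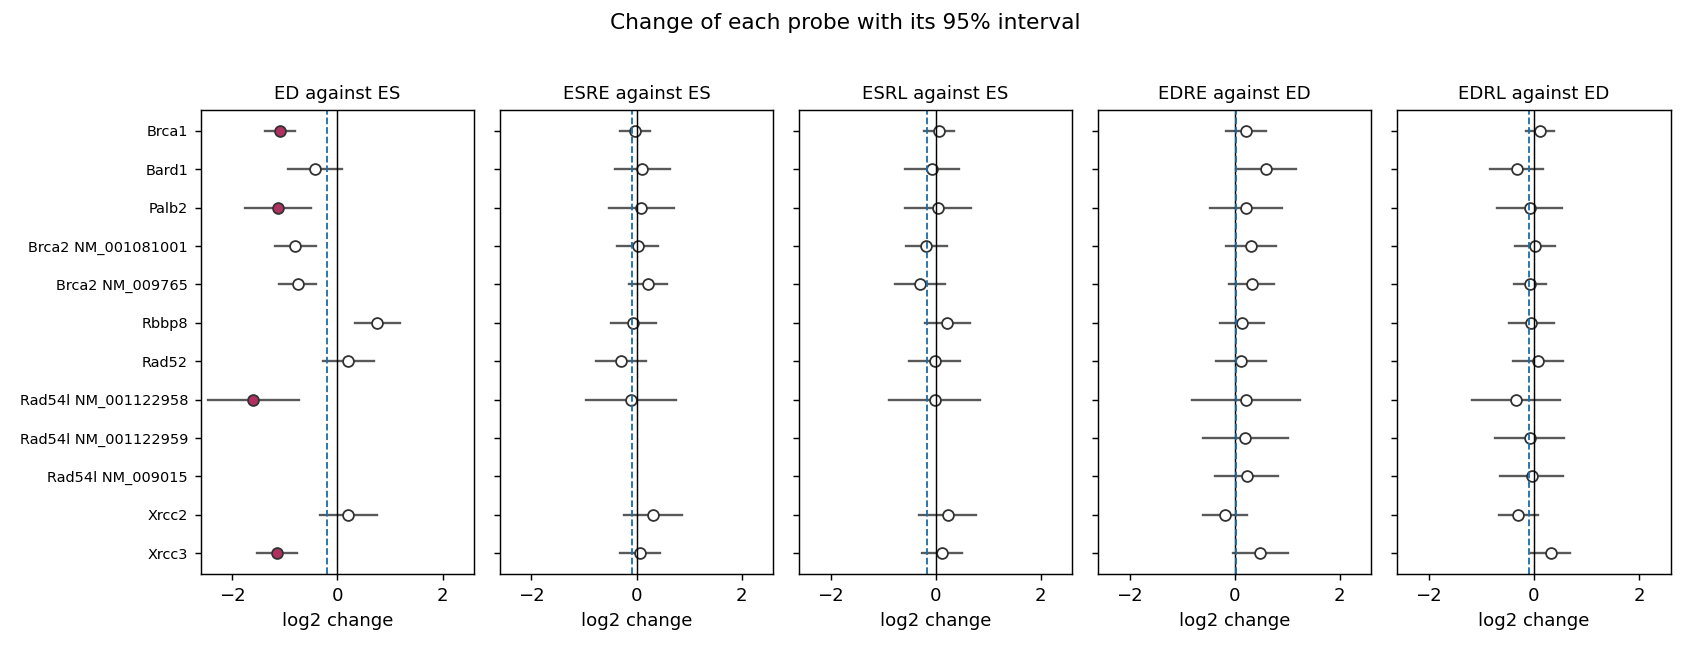
Log2 change of each probe (points) with its 95% interval (lines) in the 5 comparisons, filled where called; the dashed line is the median of all probes tested. Filled points are present in ED against ES only, at -1.09 for Brca1, -1.13 for Palb2, -1.61 for Rad54l and -1.15 for Xrcc3.

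The size of these falls depended on the scaling. With each array set to its median, the median change of all probes in ED against ES moved from -0.19 to 0.46, and none of the 4 genes was called. There Brca1 was at -0.45 (adjusted p = 0.0518), Palb2 at -0.49 (adjusted p = 0.0926), Rad54l at -0.92 (adjusted p = 0.127) and Xrcc3 at -0.51 (adjusted p = 0.0432), and Rbbp8 was called higher at 1.40 (adjusted p = 2.6e-05). The direction of Brca1, Palb2, Rad54l, Xrcc3, both Brca2 probes, Rad52, Xrcc2 and Rbbp8 was the same under both scalings. That of Bard1 turned from -0.43 to 0.21. Scaled to the medians, the Brca2 probes were at -0.16 and -0.1, so that little of their fall was left. Rad52 and Xrcc2 were at 0.85 and 0.87 there. With slide as a random block Brca1 was still called (change -1.04, adjusted p = 0.038), while Palb2 (adjusted p = 0.0606), Rad54l (adjusted p = 0.317) and Xrcc3 (adjusted p = 0.0704) were not.

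**Figure D3:**
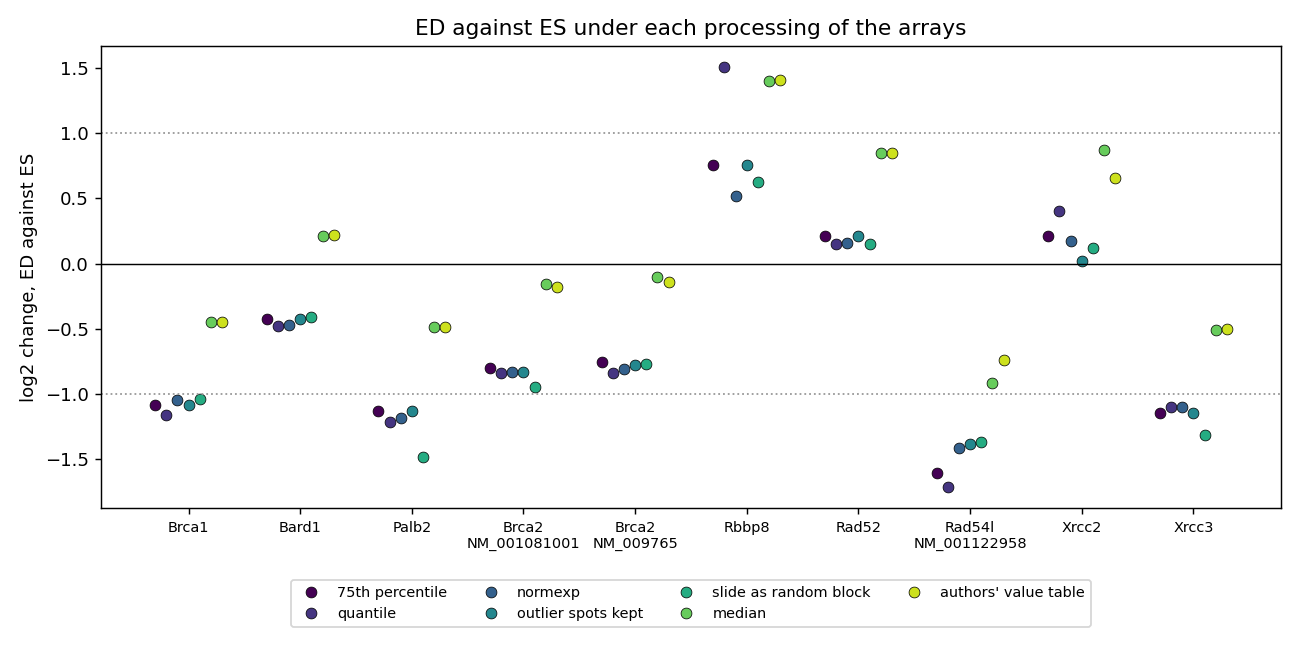
Log2 change of each gene in ED against ES (vertical axis) under 7 ways of processing the arrays (colours), with dotted lines at the fold limit. Setting each array to its median and the authors' value table lift all genes together, so that Brca1 moves from -1.09 to -0.45 and Rbbp8 from 0.76 to 1.40.

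The arrays taken after IR are other samples in which the difference between the cell types can be measured again. They were on other slides, except replicate 3 of ESRE, which shared that of the ED arrays. At either time the ES and ED arrays compared shared no slide, so slide and cell type cannot be told apart here either. This comparison was chosen after the values were seen. At 4 h, Brca1 lay between 3.0 and 3.17 in ESRL, and the EDRL arrays lay from 1.98 to 2.09. In EDRL against ESRL, 3 of 9 genes were called lower (25.0% of all genes were), with changes of -1.04 for Brca1 (adjusted p = 1.1e-05), -1.26 for Palb2 (adjusted p = 0.00173) and, for the 3 probes of Rad54l, -1.93, -1.61 and -1.58 (adjusted p = 0.00221, 0.00571 and 0.00538). Of these probes NM_001122958 had 2 usable arrays in each group, NM_001122959 had 1 in ESRL and 2 in EDRL, and NM_009015 had 1 in each, with the spread taken from the other groups. Xrcc3 changed by -0.94 (adjusted p = 0.000372). Rad54l was also called with each array set to its median, where its 3 probes changed by -1.41, -1.40 and -1.34 (adjusted p = 0.0248, 0.0085 and 0.0118) on the same few arrays, and Brca1 and Palb2 were not (-0.55 and -0.78).

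At 15 min, 2 of 9 genes were called lower in EDRE against ESRE (28.1% of all genes were). These were Palb2 at -1.01 (adjusted p = 0.0152) and Rad54l, whose 3 probes changed by -1.29, -1.02 and -1.04 (adjusted p = 0.0375, 0.031 and 0.0158), each from 1 EDRE array. Palb2 rested on 2 EDRE arrays, at 0.11 (replicate 1) and 1.43 (replicate 2, a dim array), against 1.56 to 2.04 in ESRE. The count of genes called was 1 without replicate 2 of ESRE (Palb2), without replicate 3 of ESRE and without replicate 1 of EDRE (in both Rbbp8, higher). Without replicate 1 of EDRE 5 of the 9 genes could be tested. Brca1 changed by -0.86 (adjusted p = 0.00104), below the limit, again from 1 EDRE array. Scaled to the median of each array, neither Palb2 (-0.25) nor Rad54l (-0.37 for NM_001122958) was called there, and Rad52 and Rbbp8 were called higher, at 1.34 and 1.67 (adjusted p = 5.55e-05 and 2.9e-06).

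After 10 Gy, 0 of the 9 genes were called in any of the 4 comparisons with unirradiated cells of the same type by limma. In ESRE against ES, where 0.463% of all genes were called, the changes of the member probes lay between -0.30 and 0.32 and the lowest adjusted p was 0.81. In ESRL against ES, where 7.59% of all genes were called, they lay between -0.29 and 0.23 (lowest adjusted p = 0.446). In EDRE against ED, where 5.20% were called, they lay between -0.18 and 0.59 (lowest adjusted p = 0.179), and in EDRL against ED, where 1.66% were called, between -0.34 and 0.32 (lowest adjusted p = 0.446). At an unadjusted p under 0.05 the number of probes was 0, 0, 1 and 0 in these comparisons.

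The 95% intervals of the changes after IR hold for the scaling to the 75th percentile. Brca1 was at 3.04, 2.96 and 2.96 in ESRE and at 3.17, 3.0 and 3.05 in ESRL, all within or beside its ES range. Its 95% intervals were -0.31 to 0.26 at 15 min and -0.22 to 0.34 at 4 h in ES cells, and -0.15 to 0.39 at 4 h in ED cells. In ES cells all 10 intervals at either time lay within 1 log2 unit of 0, the widest being that of Rad54l (-0.96 to 0.76 in ESRE). In ED cells the intervals of 4 probes at 15 min, those of Bard1, Xrcc3 and 2 probes of Rad54l, and of 1 Rad54l probe at 4 h reached beyond it, so a change of the size of the fold limit was within their intervals. With each array set to its median, Brca1 was at 0.37 in ESRL (adjusted p = 0.2), outside the interval given, and Rbbp8 moved from 0.22 to 0.53 and Xrcc2 from 0.23 to 0.55 there, none of them called. In EDRE against ED that scaling moved Xrcc3 from 0.48 to 0.82, Bard1 from 0.59 to 0.79 and Brca1 from 0.21 to 0.55. The median of all probes moved from 0.03 to 0.29 there. No member was called, and 3 had an unadjusted p under 0.05 by limma.

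The probe counted there was that of Bard1 in EDRE, with a change of 0.59 (95% interval 0.02 to 1.16, limma's adjusted p = 0.179). It rested on 2 arrays at 2.23 (replicate 1) and 3.49 (replicate 3, a dim array), against 2.37, 2.22 and 2.22 in ED cells. With outlier spots kept, Bard1 was at 0.84 (limma's adjusted p = 0.053) and Brca1 at 0.48 (adjusted p = 0.0572) in EDRE against ED. The Brca2 probes were at -0.18 and -0.41 there. At 4 h the EDRL values of Bard1 were 2.0, 1.94 and 1.88, below all ED arrays, a change of -0.33 (adjusted p = 0.613). In EDRL, Xrcc3 lay between -0.84 and -0.76, above all 3 ED arrays (-1.41 to -0.93), a change of 0.32 (adjusted p = 0.446).

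No difference between the cell types in the change after IR was called for any member. In the test of the difference between both changes, the interaction, 0 of 9 genes were called at 15 min (2.09% of all genes were) and 0 of 9 at 4 h (1.16%). The differences were the change in ES cells minus that in ED cells. They lay between -0.48 and 0.50 at 15 min and between -0.23 and 0.52 at 4 h. The lowest of limma's adjusted p were 0.423 and 0.458, and 0 probes had an unadjusted p under 0.05 at either time. At 15 min the intervals of Palb2, Bard1, Rad54l (-1.68 to 1.06), Rad52, Xrcc2 and Xrcc3 reached beyond the fold limit. At 4 h those of Palb2, Rad54l (-0.9 to 1.55) and Xrcc2 did. A difference of that size was therefore within their intervals. Those of Brca1, Brca2 and Rbbp8 stayed inside the limit at both times. On the same arrays, 7 of 11 p53 target genes tested were called higher in EDRL and 2 of 12 in ESRL. Of all genes, 1.66% and 7.59% were called either way there. With array medians 7 and 4 of the p53 targets were called higher. In the interaction at 4 h, 3 of 11 were called lower, their change being smaller in ES cells, and 2 with array medians. Mdm2, the p53 inhibitor, rose by 1.39 in EDRL (limma's adjusted p = 0.000109). It changed by 0.87 in ESRL (adjusted p = 0.00387), and its interaction was not called. Cdkn1a, the p21 gene, did not pass in any of the 4 comparisons.

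Upstream sequence is shown for the 4 genes called lower in ED cells, to see which letters of known cell cycle elements they carry. RefSeq windows (GRCm38.p6) were matched for 7 of the 9 genes, those of Xrcc2 and Rbbp8 not being shown here, and the 250 bases before the annotated start were searched on both strands for the E2F letters TTTCCCGC, TTTCGCGC, TTTGCCGC and TTTGGCGC, for the CCAAT box (CCAAT), and for the cell cycle homology region (TTTGAA). These letters do not overlap each other, but the matches of 2 elements can be adjacent. Capitals mark the matches.
Brca1, chr11:101551956-101552205, minus strand: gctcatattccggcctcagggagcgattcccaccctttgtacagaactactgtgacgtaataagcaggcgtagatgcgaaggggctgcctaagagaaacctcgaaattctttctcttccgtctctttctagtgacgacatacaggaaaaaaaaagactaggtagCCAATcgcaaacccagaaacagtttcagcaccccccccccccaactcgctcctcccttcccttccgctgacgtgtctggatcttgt
Palb2, chr7:122132947-122133196, minus strand: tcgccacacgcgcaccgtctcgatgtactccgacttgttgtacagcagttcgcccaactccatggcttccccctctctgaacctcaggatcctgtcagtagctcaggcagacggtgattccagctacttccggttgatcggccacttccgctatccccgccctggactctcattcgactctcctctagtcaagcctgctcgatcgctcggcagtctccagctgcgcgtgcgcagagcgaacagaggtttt
Rad54l, chr4:116123691-116123940, minus strand: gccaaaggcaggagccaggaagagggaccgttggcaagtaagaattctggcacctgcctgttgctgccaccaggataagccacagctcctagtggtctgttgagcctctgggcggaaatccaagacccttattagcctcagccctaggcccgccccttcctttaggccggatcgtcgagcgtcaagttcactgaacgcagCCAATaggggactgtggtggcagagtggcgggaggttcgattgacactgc
Xrcc3, chr12:111813880-111814129, minus strand: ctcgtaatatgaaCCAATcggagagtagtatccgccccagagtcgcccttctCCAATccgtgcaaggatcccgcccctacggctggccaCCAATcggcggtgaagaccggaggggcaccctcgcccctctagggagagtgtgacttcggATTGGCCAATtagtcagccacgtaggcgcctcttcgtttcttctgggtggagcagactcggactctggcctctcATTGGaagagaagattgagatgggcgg

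The CCAAT box, bound by NF-Y, was found in the windows of Brca1 (1 match), Rad54l (1 match) and Xrcc3 (6 matches), or 3 of the 7 members with a window, and in 33.8% of the 32536 distinct windows of the same length. The match in Brca1 starts 86 bases and that in Rad54l 50 bases before the start. The E2F letters were found in 2 of 7, in Brca2 and Bard1, and in 1.9% of all windows, and the letters TTTGAA in 1 of 7, in Bard1, and in 15.8%. The window of Palb2 held none of them. A match is a description of letters and not a binding site, and the absence of a match says only that these letters are not in this window.

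A list of 49 further genes of homologous recombination held 45 on the array. In ED against ES, 2 of the 37 tested were called higher and 9 lower, against 14.9% and 26.7% of all genes, so the share called lower was near that of all genes. The median change was -0.49, against -0.19 over all probes. Scaled to the array medians, 7 of the list were higher and 4 lower by the same thresholds. By role, the genes called lower were 3 of 6 in end resection, 1 of 2 in RPA, the single-strand binding complex, 2 of 10 in strand exchange and 3 of 6 in dissolution and resolution. None of 7 genes of Brca1 complexes was called lower and 1 was called higher, and 0 of 6 anti-recombinases and others were called. This split depended on the scaling. With array medians, 2 were lower in end resection, 0 in RPA, 1 in strand exchange and 1 in dissolution and resolution. Those called higher there were 1 in end resection, 4 in strand exchange and 2 in Brca1 complexes.

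The largest falls were those of Dmc1, the meiotic recombinase, Blm, the Bloom helicase, and Exo1, a resection nuclease. Dmc1 was at -2.41 on average in ES cells and was not well above background in any ED array. Its measured change was -6.27 (adjusted p = 7.34e-09). With the ED level taken from the dimmest detected probe of each array, Dmc1 was at least 32.7-fold higher in ES cells. This bound was not itself tested and holds only for the scaling of the main fit. The measured change was -5.62 with array medians, -3.28 with normexp background correction and -6.62 with slide as a random block. Blm changed by -2.68 (adjusted p = 6.08e-05) and, in a second probe, by -2.0, and Exo1 by -2.14 (adjusted p = 1.23e-05). With slide as a random block Dmc1 was still called (adjusted p = 0.000698), while Blm (adjusted p = 0.137), Exo1 (adjusted p = 0.105), Rad51d (adjusted p = 0.374) and Brip1 (adjusted p = 0.364) were not. The 2 rises were those of Rad51d, a partner of Xrcc2, by 1.09 (adjusted p = 0.0119) and Brip1, a helicase partner of Brca1, by 1.02 (adjusted p = 0.00135). Rad51d was at 0.52 (adjusted p = 0.155) without replicate 3 of ED, and Brip1 at 0.99 without replicate 3 of ES and at 0.94 without replicate 1 of ED. Neither reached the fold limit with normexp background correction (0.85 and 0.94), and with outlier spots kept Rad51d did not pass the test (1.19, adjusted p = 0.139).

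**Figure D4:**
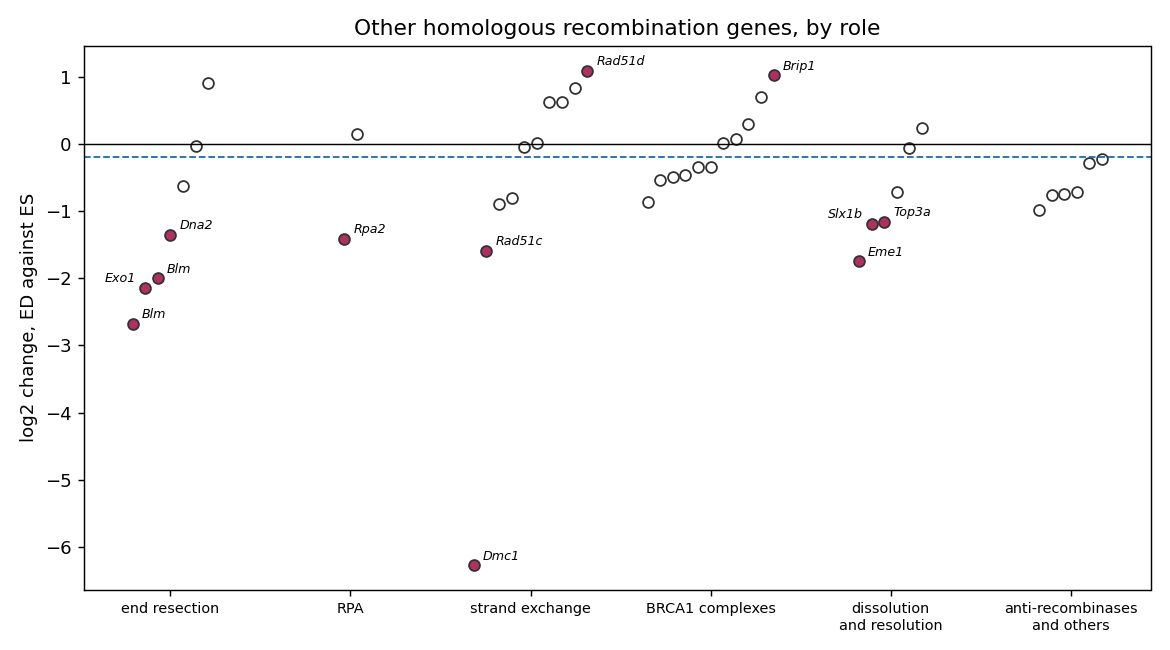
Log2 change in ED against ES (vertical axis) of each probe of the other genes of homologous recombination, grouped by role, filled and named where called; the dashed line is the median of all probes tested. Dmc1, not well above background in ED cells, is drawn at its measured value of -6.27, and the other named genes lie between -2.68 and 1.09.

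After IR, few genes of the list passed. In ESRE against ES 1 of 37 was called, Dna2, a resection nuclease and helicase, which had a mean of 2.15 ± 0.09 (SD, n = 3) in ESRE against 0.82 ± 0.20 (SD, n = 3) in ES and rose by 1.33 (adjusted p = 0.0214). In ESRL 1 of 37 was called higher, again Dna2, at 1.85 ± 0.51 (SD, n = 3), by 1.03 (adjusted p = 0.0142), and 2 lower, Dmc1 by -1.54 (adjusted p = 0.0346) and Abraxas1, a subunit of a Brca1 complex, by -1.33 (adjusted p = 0.0112). Abraxas1 was well above background on 1 of 3 ESRL arrays, so the size of its change rests on dim values, and it was not called with quantile normalization (-0.65, adjusted p = 0.241) or the authors' value table (-1.02, adjusted p = 0.0532). When 1 of the 18 arrays was omitted, Dna2 kept its call in 12 fits in ESRE and 14 in ESRL, and Dmc1 in 13. The fits in which Dna2 lost its call in ESRE were those without any 1 array of ES or ESRE (adjusted p up to 0.118), and in ESRL those without replicate 1 or 2 of ES or replicate 2 or 3 of ESRL, where its change was 0.79 to 1.06. Dmc1 lost it without any 1 array of ES or without replicate 1 or 3 of ESRL, with a change of -1.13 without replicate 1 of ESRL. With normexp background correction only Dna2 in ESRE was called of these 4 changes, and with outlier spots kept it was not (adjusted p = 0.0558). Dmc1 in ESRL was also not called with array medians (-1.23, adjusted p = 0.0532), quantile normalization (adjusted p = 0.146) or the authors' table (adjusted p = 0.061). The median change of the list was -0.08 in ESRE and -0.04 in ESRL, against -0.08 and -0.16 over all probes.

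In ED cells, 1 of 40 genes was called higher and 1 lower in EDRE, Mms22l, which acts at stalled replication forks, by 1.44 (adjusted p = 0.017), and Rad51d by -2.51 (adjusted p = 0.0109), each from 1 EDRE array. Mms22l lost its call without replicate 1 or 2 of ED (adjusted p = 0.0613 and 0.0611). With outlier spots kept neither was called (0.93 and -0.57), and with normexp Rad51d was at 0.51. In EDRL 0 of 39 were called by limma, and 4 had an unadjusted p under 0.05. The changes of Dna2, Dmc1, Abraxas1, Mms22l and Rad51d after IR did not pass with slide as a random block.

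Homologous recombination genes are known to be expressed mainly in dividing cells, and 20 proliferation genes were followed beside them. In ED against ES, 1 of 18 tested was called higher and 2 lower, against 14.9% and 26.7% of all genes. Their median change was -0.40, against -0.19 over all probes. Mki67 rose by 1.02 (adjusted p = 0.00147). The genes called lower, named after their values were seen, were Ccne1, a cyclin of entry into S phase, by -3.27 (adjusted p = 8.6e-08), and Mcm2, a subunit of the replicative helicase, by -1.08 (adjusted p = 3.37e-05). Ccna2 changed by 0.80 (adjusted p = 0.00109) and Pcna by -0.02. Scaled to the array medians, 3 of the list were higher and 1 lower, with Ccne1 at -2.62, Mcm2 at -0.43 and Pcna at 0.63. Linear levels relative to the 75th percentile were also summed, with outlier spots kept. The sum of the proliferation probes ranged from 496 to 524 over the ES arrays and from 383 to 469 over the ED arrays. That of the 12 member probes ranged from 52.2 to 54.5 and from 28.8 to 29.2. Each probe counts once, so Rad54l and Brca2 with several probes weigh more, and both sums depend on the scaling. The part of proliferation in the lower levels of the members was not tested, and in these bulk samples fewer cells with a transcript and less transcript per cell cannot be told apart.

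The genes most like the members were sought over the 18 arrays. Only Rad52 and Rbbp8 had a usable value on every array, and Brox (Pearson's r = 0.941), Rrad, Sgpp1, Mfsd9 and Chd6 followed their mean most closely among 3637 probes. With outlier spots kept, which was chosen after the values were seen, the mean of all 12 probes was followed most closely by Tcstv1 (r = 0.995), Dppa4, Dnmt3b, Apoe and Shfl among 12250 probes. Both sets separate the ES from the ED arrays, the first being higher in ED cells and the second in ES cells, so these r describe that split.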

How the data were processed

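The members and all gene lists were chosen with earlier results of these data known. The authors deposited scanner output, whose processed signals are intensity values with background removed (Agilent Feature Extraction, 9.1 in the submitters' processing notes and 10.7.3.1 in the file headers) and no normalization between arrays. The log2 values of the authors' deposited table were used as an alternative. On each array they lay below the log2 processed signal by nearly 1 constant, close to the array's log2 median. These were 8.097 and 8.145 for replicate 1 of ES, and 5.422 and 5.474 for replicate 2 of EDRE. That table is therefore close to the scaling to array medians and is not a separate check of it. Control spots and marked outliers were dropped. Each signal was divided by its array's 75th percentile and put in log2, and spots of a probe were averaged. A probe was well above background where at least 50% of its spots were, and was tested where all arrays of at least 1 group compared were. Group means were compared by limma (3.58.1, R 4.3.3) in 1 fit of all 18 arrays, moderated over the probes tested and adjusted over all of them; a gene was counted once. The number of arrays limits the precision. The fit was tested on simulated data. The genes named are the 9 members, the other genes of the pathway with the 3 largest called rises and falls per comparison, the 5 genes most like the members, Pou5f1, Sox2, Nanog, Cdkn1a, Mdm2, Mki67, Pcna and Ccna2. A further gene of the pathway is not reported here.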

Additional observations from a re-analysis of the deposited data

Results flagged for a closer look

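Differences between ES and ED cells in the change after IR (the change in ES minus that in ED cells) passed limma's interaction test for 3 of the genes named. At 15 min it was 2.94 for Rad51d (adjusted p = 0.0212) and 2.3 for Pou5f1 (adjusted p = 0.0128). Rad51d had 1 usable EDRE array, at -5.16, and Pou5f1 was well above background on 1 of 3 EDRE arrays. At 4 h it was 1.47 for Dna2 (adjusted p = 0.0464), which was at 0.82 ± 0.20 (SD, n = 3) in ES, 1.85 ± 0.51 (SD, n = 3) in ESRL, -0.52 ± 0.16 (SD, n = 3) in ED and -0.97 ± 0.04 (SD, n = 3) in EDRL. With slide as a random block neither Rad51d nor Dna2 passed. When 1 array was omitted, Dna2 kept its call in 5 of 18 fits and Rad51d in 12 of 17, and with outlier spots kept neither was called (1.47, adjusted p = 0.118, and 1.0, adjusted p = 0.514).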

How the results depend on the processing

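The 4 genes called in ED against ES became 1 with each array set to its median (Rbbp8, higher). They also became 1 with the authors' value table (Rbbp8, higher), which is close to that scaling. With slide as a random block the count was 1 (Brca1, lower), and the cause of these shifts was not tested. When 1 of the 18 arrays was omitted it was 4 in all fits, as with the methods' t-test after adjustment. In EDRE against ED and in the interaction at 15 min the count of 0 ranged from 0 to 1 over these fits, the 1 being Bard1 without replicate 1 of EDRE, with changes of 1.22 and -1.11. The other IR comparisons gave 0 in every fit run, the methods' t-test included, which was not run for the interactions. Without adjustment, that test passed 2 members in ESRE and 1 in EDRL by p alone, all under the fold limit. In EDRL against ESRL the 3 genes became 1 (Rad54l) with each array set to its median and 1 with the authors' table, and ranged from 2 to 3 with arrays left out. In EDRE against ESRE the 2 genes ranged from 1 to 3; with medians there were 2 too, but Rad52 and Rbbp8, both higher. Slide as a block was not run for these 2 comparisons. Rad51d turned from -2.51 to 0.51 in EDRE against ED and from 2.94 to -0.10 in the interaction at 15 min with normexp background correction. Same-numbered replicates had correlations of their deviations from the group mean between -0.43 and 0.30. Deviations from means of 3 arrays cannot exclude a pairing, and the samples were treated as unpaired. With a replicate block the count in ED against ES was 4 and 0 in each of the other comparisons. Of 2284 changes of members under alternatives, 8 became called, 11 lost their call and 0 called ones reversed. All 11 were in ED against ES, with array medians, the authors' table or slide as a random block. Most of the 2284 were IR changes called in no setting, so this total does not measure how stable the calls are. Among changes called in neither fit, 116 changed sign.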
